A study of Saccharomyces cerevisiae with 95 samples.

Results

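TFIIE binding sites of budding yeast that had no TBP site near them were examined in a competition ChIP experiment. Of 4313 TFIIE sites that lay outside mitochondrial DNA and not over a tRNA or rRNA gene, 1187 (27.5%) were over 150 bp from every one of the 4385 TBP sites. The other 3126 are called the remaining TFIIE sites, and 3086 of them overlapped a TBP site. The members were chosen only by the positions of called sites, not by read counts in them, although both site sets had been called on ChIP libraries of the same study. The tables held reads in called sites only, so TBP reads at the 1187 members were not analysed here, and a missing TBP site is not a measurement of zero TBP.

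The cells were diploid W303 yeast with a 9xMyc tag on one copy of Tfa1, a TFIIE subunit, under its own promoter, and a 3xHA tag on a second copy under the GAL1 promoter. A galactose-controlled copy of the other TFIIE subunit was also present in these cells. HA-TFIIE and Myc-TFIIE were each immunoprecipitated at 8 times after a raffinose culture received galactose, with 1 library per tag and time, which made 16 libraries. The times were 10, 20, 25 and 30 min, and then 40, 60, 90 and 120 min. The sites of TBP, TFIIA, TFIIB and TFIIF came from separate W303 strains and cultures, each with the tags on its own factor. Because no time had a replicate, the errors and p-values below rest only on how far the 8 time points strayed from a fitted trend.

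TBP, the TATA-binding protein, binds and bends core promoter DNA early in the assembly of the RNA polymerase II preinitiation complex. TFIIA and TFIIB bind next to TBP, TFIIF arrives with the polymerase, and TFIIE is a late component that helps to bring in TFIIH, the factor that opens the promoter. In a competition ChIP the HA copy replaces the Myc copy as it is made, so the HA/Myc ratio at a site is read over time.

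The sequences of 7 members near an annotated start are given first, because the values below return to them. The members MNN4, CDC24, SUL2 and PAR32 had an HA/Myc ratio that rose relative to the typical site. Each sequence is the part of the site between 300 and 50 bases upstream of the annotated start, read on the strand of the gene from the RefSeq copy of the R64 reference (sacCer3). Capitals mark a word of the TATA consensus on either strand, and the words searched were TATAAAAA, TATAAAAG, TATAAATA, TATAAATG, TATATAAA, TATATAAG, TATATATA and TATATATG.
MNN4, chrXI:67516-67766, minus strand: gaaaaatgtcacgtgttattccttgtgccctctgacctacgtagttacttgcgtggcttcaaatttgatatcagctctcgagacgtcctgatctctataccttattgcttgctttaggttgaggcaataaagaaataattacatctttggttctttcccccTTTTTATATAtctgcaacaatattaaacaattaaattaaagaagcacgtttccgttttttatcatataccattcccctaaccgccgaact
CDC24, chrI:62649-62790, plus strand: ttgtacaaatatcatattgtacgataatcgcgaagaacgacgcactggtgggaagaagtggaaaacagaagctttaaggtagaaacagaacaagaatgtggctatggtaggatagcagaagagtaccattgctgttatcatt
SUL2, chrXII:323258-323494, plus strand: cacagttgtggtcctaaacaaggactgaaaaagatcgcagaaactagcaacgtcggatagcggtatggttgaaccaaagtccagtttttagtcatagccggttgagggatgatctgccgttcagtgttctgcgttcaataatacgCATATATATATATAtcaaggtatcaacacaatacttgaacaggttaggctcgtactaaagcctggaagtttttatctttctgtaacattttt
PAR32, chrIV:148008-148141, plus strand: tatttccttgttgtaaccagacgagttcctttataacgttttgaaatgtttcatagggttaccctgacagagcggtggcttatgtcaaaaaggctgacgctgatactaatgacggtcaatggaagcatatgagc

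The members HUA2, ATG7 and YUR1 had a ratio that fell. No TATA word, TTACCCG (the core of the Reb1 motif) or TGACTC (the core of the Gcn4 motif) was found on either strand of these stretches. The 300 bases centred on the HUA2 site, which reach beyond its printed stretch of 110 bases, did hold a TATA word.
HUA2, chrXV:848319-848428, plus strand: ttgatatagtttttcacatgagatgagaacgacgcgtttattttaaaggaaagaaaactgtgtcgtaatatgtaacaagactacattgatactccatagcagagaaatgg
ATG7, chrVIII:445501-445663, plus strand: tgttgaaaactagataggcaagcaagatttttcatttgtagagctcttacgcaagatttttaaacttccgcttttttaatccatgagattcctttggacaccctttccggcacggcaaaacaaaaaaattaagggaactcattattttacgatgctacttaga
YUR1, chrX:153049-153178, minus strand: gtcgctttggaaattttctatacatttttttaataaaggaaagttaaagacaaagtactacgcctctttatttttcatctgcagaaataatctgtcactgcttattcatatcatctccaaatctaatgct

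Total counts in TFIIE sites ran from 8724892 to 17181253 in HA libraries and from 7921726 to 18570928 in Myc libraries. The members held 8.88% to 9.79% of the counts in HA libraries and 8.83% to 11.2% in Myc libraries. The lowest count of any member in any library was 109, and the median count of a member ran from 653 to 1159 in HA libraries and from 685 to 1264 in Myc libraries. All 1187 members passed the filter of a mean of at least 10 counts, with mean counts from 345 upward.

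Most members lay far from TBP sites and close to genes. The distance from a member to the nearest TBP site had a median of 1486 bp and ran from 151 to 13082 bp, and 1019 members were over 500 bp away. The midpoint of 945 members (79.6%, 95% Wilson interval 77.2 to 81.8) lay between 250 bp upstream and 100 bp downstream of an annotated start, against 2262 of the remaining sites (72.4%, 70.8 to 73.9). Those 945 members belonged to 945 different genes, and 904 of them lay upstream of the start. Their median position was 83 bp upstream of it, and 532 (56.3%) lay within the first 100 bp upstream. The remaining sites near a start had a median position of 115 bp upstream, and 812 (35.9%) lay within the first 100 bp. These intervals cover counting error only, and annotated starts are coding starts.

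A further 95 members (8.0%) lay inside a coding gene, against 160 (5.12%) of the remaining sites. The members inside a gene lay at a median of 63.5% of its length from the start, against 46.9% for the remaining sites inside a gene. Sites between divergent genes made up 4.30% of the members and 9.34% of the remaining sites, and sites between tandem genes 6.49% and 10.6%. No member overlapped a centromere (upper Wilson bound 0.323%), and 12 remaining sites did. Long terminal repeats or Ty elements, the yeast retrotransposons, were overlapped by 4 members and by 157 remaining sites. Annotated replication origins were overlapped by 27 members (2.27%) and by 80 remaining sites (2.56%). A distance of at most 20 kb from a chromosome end was found for 43 members (3.62%) and for 107 remaining sites (3.42%).

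The members were narrower than the remaining sites, slightly richer in GC at their centres, and held fewer TATA words. Site width had a median of 303 bp for members and 502 bp for the remaining sites. In the central 300 bases the median GC content was 37.0% in members and 35.7% in the remaining sites. A TATA consensus word occurred there in 338 members (28.5%, interval 26.0 to 31.1) and in 1162 remaining sites (37.2%, 35.5 to 38.9), against 37.7% of 6001 promoter windows of the same length, from 250 bases before to 50 after each start. A run of 8 A on either strand occurred in 321 members (27.0%), in 1141 remaining sites (36.5%) and in 32.1% of the promoter windows. TTACCCG was found in 9.94% of members, 8.73% of remaining sites and 7.08% of promoter windows, and TGACTC in 9.01%, 8.22% and 7.97%. The lower TATA share of members was seen in each quartile of TFIIE level, with 29.6%, 29.2%, 24.2% and 16.7% of members and 42.5%, 33.3%, 34.0% and 39.6% of remaining sites, in order of rising level. The top quartile held 12 members.

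**Figure D1:**
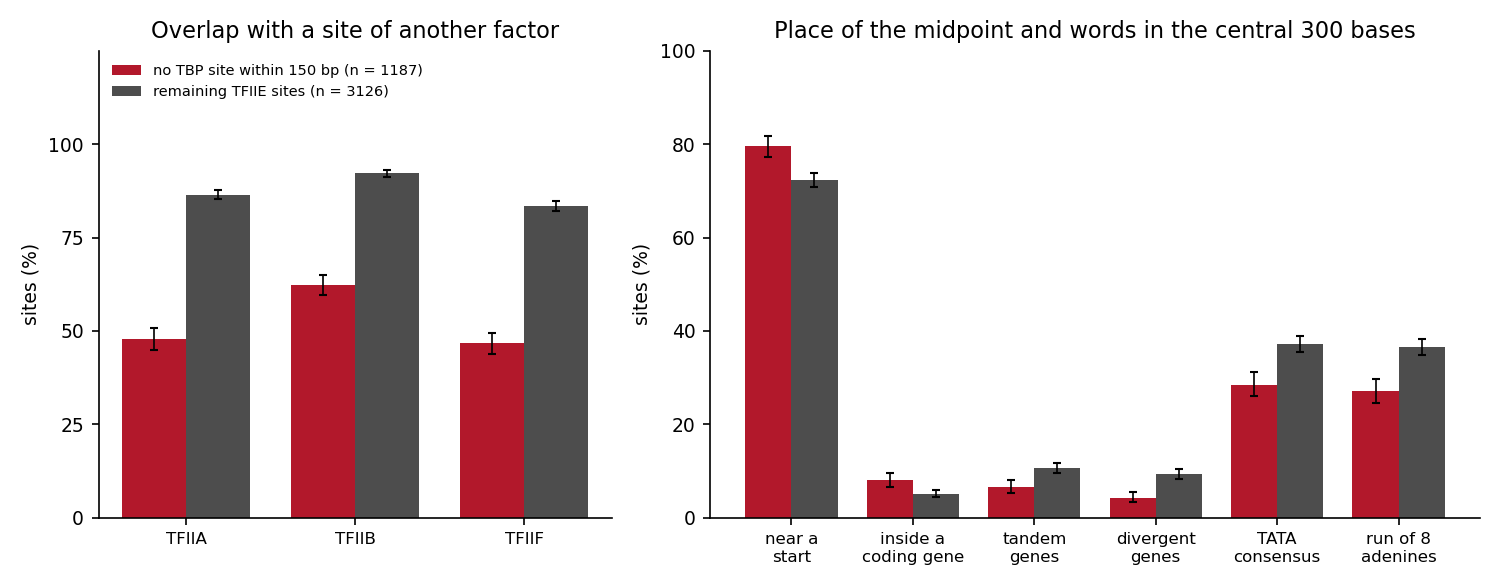
Share of sites (%, y axis) that overlap a TFIIA, TFIIB or TFIIF site (left) and share by place of the midpoint and by word in the central 300 bases (right), for members (red) and remaining TFIIE sites (grey). Bars are shares and lines are 95% Wilson intervals, which cover counting error only; the red bar is the lower one for all 3 factors, at 62.3% or less against 83.4% or more.

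Fewer members than remaining sites coincided with sites of the other 3 factors. A TFIIB site shared at least 1 bp with 740 members (62.3%, interval 59.6 to 65.1) and with 2885 remaining sites (92.3%, 91.3 to 93.2). For TFIIA these were 568 members (47.9%, 45.0 to 50.7) and 2704 remaining sites (86.5%, 85.3 to 87.7). For TFIIF they were 554 members (46.7%, 43.8 to 49.5) and 2608 remaining sites (83.4%, 82.1 to 84.7). All 3 factors had a site at 381 members (32.1%), against 2446 remaining sites (78.2%), and none had one at 316 members (26.6%), against 137 remaining sites (4.38%).

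The gap in overlap was present among sites of like TFIIE level. In the lowest quartile of mean level over the 16 libraries, a TFIIB site was overlapped by 53.1% of 554 members and 73.1% of 525 remaining sites, and a TFIIA site by 38.8% and 63.0%. In the second quartile TFIIB overlap was 65.7% of 435 members and 88.8% of 643 remaining sites. In the third it was 82.3% of 186 members and 97.5% of 892 remaining sites. Members were also narrower within each quartile, with medians of 314, 294, 294 and 296 bp against 419, 432, 464 and 658 bp for the remaining sites, and the part of width in the overlaps was not tested.

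Where the other factors did have a site at a member, their own median level there was below that at the remaining sites in every Myc library, and for TFIIB in every HA library as well. Over the 8 times, the median TFIIB level in the 746 TFIIB sites that overlapped members only was 0.660 to 0.893 times that of the 3008 TFIIB sites over remaining sites only in HA libraries, and 0.588 to 0.742 times in Myc libraries. For TFIIA, with 534 and 2559 such sites, the range was 0.881 to 1.03 in HA libraries and 0.873 to 0.945 in Myc libraries. For TFIIF, with 563 and 2818 sites, it was 0.703 to 1.0 in HA libraries and 0.810 to 0.919 in Myc libraries.

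TFIIE level is given as reads per kb of site per 1000000 reads in nuclear sites outside rRNA genes. HA-TFIIE level, as the median of the 8 libraries of a site, had a median of 263 in members and 331 in the remaining sites, with quartiles of 233 and 295 in members and of 273 and 432 in the remaining sites. Myc-TFIIE level had a median of 281 in members and 350 in the remaining sites. Of the members, 554 lay in the lowest quartile of mean level and 12 in the highest, against 525 and 1066 of the remaining sites. The highest HA level of a member was 1672, and that of a remaining site 3011.

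Over time the HA level of members stayed below that of the remaining sites by about the same factor, while the Myc levels drew together. The median HA level of members was 298, 260, 264, 263, 270, 254, 253 and 271 at the 8 times from 10 to 120 min, against 372, 335, 338, 334, 335, 321, 322 and 335 at the remaining sites. Members thus stood at 0.778 to 0.808 times the remaining sites in every HA library. By the study's Western blots most HA protein was made well after 10 min. The 10 min HA library held 6.89% mitochondrial counts, against 0.206% to 0.881% in the other HA libraries, so its values are less certain than theirs. The median Myc level of members was 249, 245, 232, 263, 306, 296, 388 and 392, against 340, 337, 327, 341, 358, 355, 406 and 406 at the remaining sites. The factor between them was 0.710 to 0.770 up to 30 min, 0.836 and 0.855 at 60 and 40 min, and 0.954 and 0.966 at 90 and 120 min. In the same Myc libraries the spread of levels over all 4313 sites narrowed, with a standard deviation of log2 level of 0.662 at 20 min and 0.308 at 120 min, and the share of counts over rRNA genes was 6.12% at 10 min and 27.0% at 120 min. The mitochondrial share was 0.319% to 0.774% in Myc libraries up to 30 min and 1.97% and 2.07% at 40 and 60 min. It was 5.03% and 4.80% at 90 and 120 min, so the late Myc values are less certain as well. The part of these library-wide changes in the members' values cannot be told apart from time, since each time had 1 library.

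**Figure D2:**
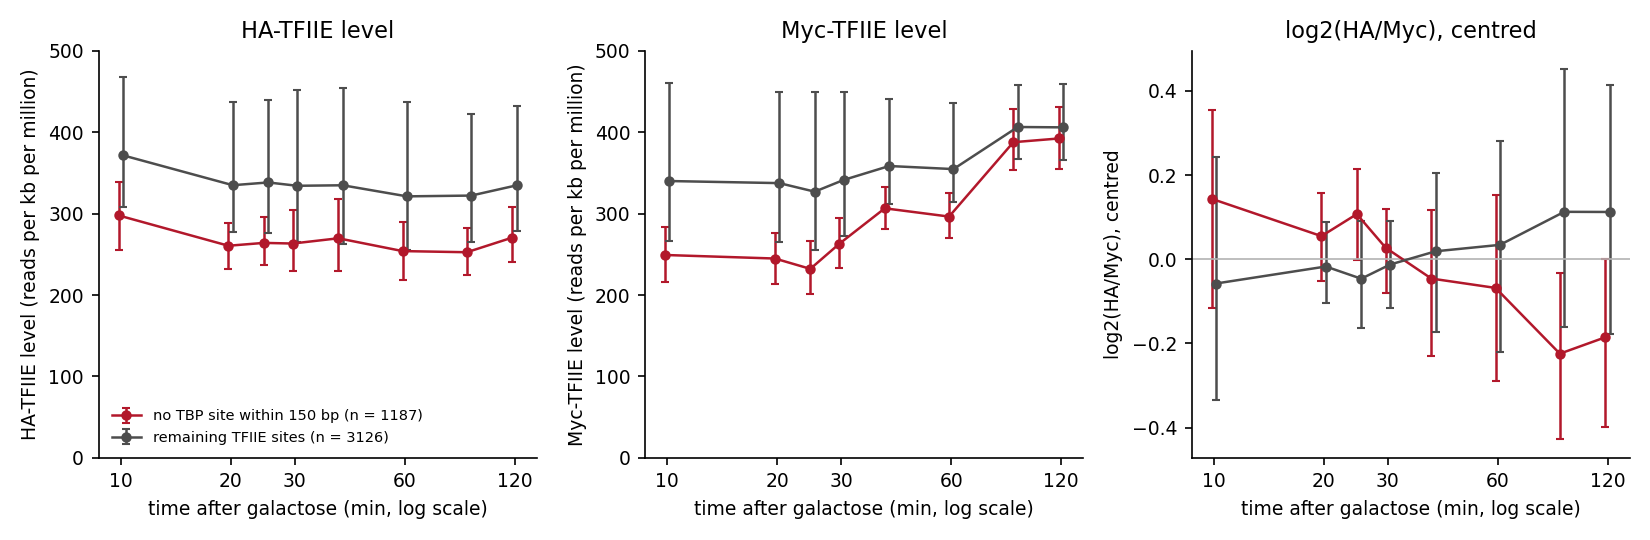
HA-TFIIE level (left), Myc-TFIIE level (middle), both in reads per kb and 1000000 reads, and log2(HA/Myc) centred on the median of all 4313 sites (right), against time after galactose (min, log scale), for members (red) and remaining TFIIE sites (grey). Points are medians over sites and lines span the lower to the upper quartile of sites, not an error; the red Myc points approach the grey ones at 90 and 120 min, and the red ratio passes below the grey one from 40 min.

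The HA/Myc ratio of members was therefore above that of the remaining sites early and below it late. The median log2(HA/Myc) of members minus that of the remaining sites was 0.20, 0.072, 0.15, 0.040, -0.065, -0.10, -0.34 and -0.30 at the 8 times in order. Within quartiles of level most of this difference was no longer seen. In the lowest quartile it was -0.070 at 10 min, 0.11 at 60 min, -0.016 at 90 min and 0.015 at 120 min. In the second it ran between -0.071 at 90 min and 0.092 at 60 min. In the third it was 0.041 at 10 min, 0.10 at 60 min and -0.11 at 90 min. The highest quartile, with 12 members, ran from -0.34 at 10 min to 0.22 at 60 min. These differences within quartiles were not tested.

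Each site's trend was fitted as the ratio slope, the change in log2(HA/Myc) per doubling of time relative to the typical TFIIE site. Called sites are those with a Benjamini-Hochberg adjusted p under 0.05 over all 4473 TFIIE sites in edgeR's quasi-likelihood test. The ratio fell at 559 members (47.1%), against a background of 30.9% of all TFIIE sites, and rose at 90 members (7.58%), against a background of 29.4%. At the remaining sites it fell at 718 (23.0%) and rose at 1215 (38.9%). The median ratio slope was -0.12 in members, with quartiles of -0.22 and 0.00088 and a median standard error of 0.054, and 0.049 in the remaining sites. The 538 other members did not pass the threshold. Without the 10 min libraries 40 members rose.

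Read by level, members and remaining sites had nearly the same slopes. In the lowest quartile the median ratio slope was -0.19 in members and -0.19 in remaining sites, and the ratio fell at 356 of 554 members (64.3%) and 355 of 525 remaining sites (67.6%). In the second quartile the medians were -0.088 and -0.071, with falls at 39.1% of members and 35.5% of remaining sites. In the third they were 0.0062 and 0.048, with falls at 17.7% and 12.4%. In the highest quartile 9 of 12 members and 858 of 1066 remaining sites rose. The loess scaling fitted a curve on the mean log count of each site in each library, which removes trends shared by sites of like count. Count depends on site width as well as on level, so this grouping differs from the level quartiles. With it the split of members turned, with 243 rising and 154 falling and a median slope of 0.017. Of the 559 members that fell, 139 still did so under that scaling and none rose. The members' median slope was thus below 0 in the lower 2 quartiles and above 0 with the loess scaling.

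**Figure D3:**
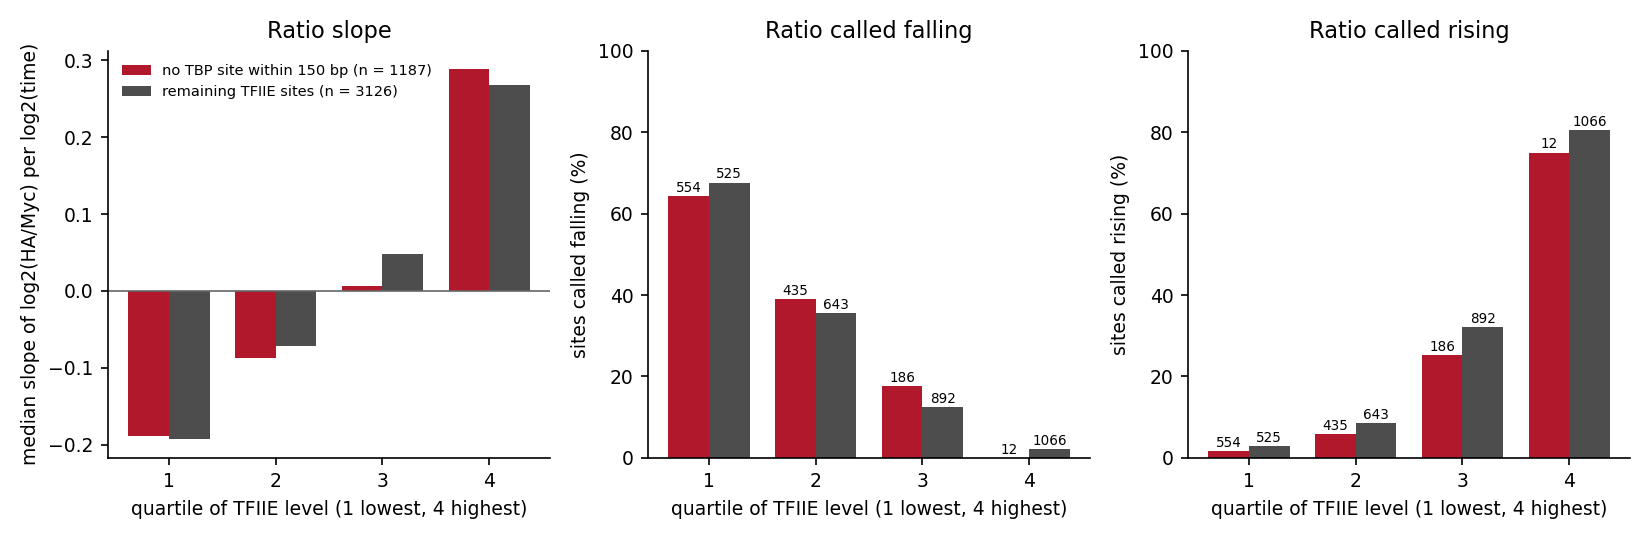
Median ratio slope, in log2(HA/Myc) per log2(time) (left), and share of sites (%) whose ratio was called falling (middle) or rising (right), by quartile of TFIIE level over all 4313 sites, for members (red) and remaining TFIIE sites (grey). Numbers over the bars are sites; red and grey bars stand at similar heights within a quartile, with median slopes of -0.19 and -0.19 in the lowest and 0.29 and 0.27 in the highest.

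The 2 tags did not contribute alike to these slopes. Reads were scaled within each library, so a tag called rising or falling moved relative to the typical TFIIE site, not in the amount bound. Fitted alone, Myc-TFIIE rose at 591 members (49.8%, background 30.9%) and fell at 53 (4.47%, background 29.4%), with a median slope of 0.10 in members and -0.053 in the remaining sites. The ratio and the single-tag fits use the same libraries, and several early Myc libraries took part in calling the sites. HA-TFIIE rose at 23 members (1.94%, background 3.04%) and fell at 18 (1.52%, background 3.78%), with a median slope of -0.0088 in members and -0.0018 in the remaining sites. Of the 559 members with a falling ratio, 461 had Myc rising and HA not called, 11 had Myc rising and HA falling, 6 had only HA falling and 80 had neither tag called. Of the 90 members with a rising ratio, 37 had only Myc falling, 9 had only HA rising, 2 had both and 41 had neither tag called. With the loess scaling Myc rose at 131 members and fell at 192, and without 120 min it fell at 34. The HA counts depended on single libraries, since without 20, 25 or 90 min 1 member rose and 1 fell, without 60 min 2 rose and 1 fell, without 10 or 30 min 11 and 12 rose, and without 120 min 38 fell.

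Members with fewer partner sites had lower ratio slopes. The median slope was -0.23 in the 316 members with no TFIIA, TFIIB or TFIIF site, -0.14 in the 261 with 1, -0.098 in the 229 with 2 and -0.026 in the 381 with all 3. Falls numbered 239 (75.6%), 138 (52.9%), 100 (43.7%) and 82 (21.5%) in the same order. Their median HA level was 245, 254, 262 and 283 and their median width 228, 272, 322 and 390 bp, so level and width moved with the number of partners, and their part was not tested. The remaining sites ran in the same direction, with median slopes of -0.30, -0.17, -0.12 and 0.11. With the loess scaling the members with no partner site had 40 rises and 45 falls, and those with all 3 had 88 rises and 43 falls. By distance to the nearest TBP site, the median HA level was 279 in the 67 members at 151 to 300 bp, 273 in the 101 at 301 to 500 bp, 261 in the 246 at 501 to 1000 bp, 263 in the 364 at 1001 to 2000 bp, 261 in the 358 at 2001 to 5000 bp and 253 in the 51 beyond. The median ratio slope was 0.015 in the nearest of these groups and between -0.14 and -0.092 in the others.

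The 8 members with the highest HA level were 3 sites at chromosome ends, 4 sites near an annotated start (MNN4, CDC24, HMS2 and SUL2) and 1 inside a gene (YBR197C). The top 3 lay close to an end of chromosomes III, VIII and XIV, at chrIII:53-313, chrVIII:562444-562605 and chrXIV:784066-784295, beyond the last annotated gene. Chromosome ends carry near-identical repeats, so reads there can be shared between ends and these values are uncertain. The chromosome XIV site had HA levels of 221, 1159, 763, 839, 2432, 1738, 3561 and 1797 and Myc levels of 716, 305, 606, 253, 846, 281, 792 and 940 at the 8 times. The 3 ends moved together, with HA lowest at 10 min and highest at 90 min in each. Their ratio slopes were 0.77 ± 0.25, 0.54 ± 0.21 and 0.83 ± 0.29 (SE), with edgeR adjusted p of 0.0209, 0.047 and 0.0258. Without 10 min these slopes were 0.29, 0.12 and 0.28 and none passed the threshold, and without 120 min they were 1.18, 0.88 and 1.27. Without 90 min the adjusted p values were 0.0598, 0.114 and 0.0707, without 25 min those of chromosomes VIII and XIV were 0.0834 and 0.0546, and that of chromosome VIII was 0.0535 without 30 min and 0.0744 without 60 min. With the loess scaling none of the 3 passed (adjusted p 0.0660, 0.0796 and 0.0566), nor with a trend linear in time (0.245, 0.355 and 0.268). That of chromosome VIII did not pass with the total-count scaling or DESeq2's Wald test either (0.0536 and 0.0579).

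The next highest was MNN4, which encodes a regulator of mannosylphosphate addition to cell wall mannoproteins. Its site at chrXI:67264-67877 was centred 104 bp upstream of the start, lay 685 bp from the nearest TBP site, overlapped sites of TFIIA, TFIIB and TFIIF, and held TATA words in the sequence printed above. HA levels at MNN4 were 524, 698, 684, 764, 904, 727, 600 and 527 over the 8 times, and Myc levels were 754, 641, 663, 665, 696, 558, 434 and 415. HA stood highest at 40 min and Myc lowest at 120 min. The ratio slope was 0.38 ± 0.054 (SE), with an edgeR adjusted p of 0.000135, and the Myc slope alone was -0.36 with an adjusted p of 0.000872.

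CDC24, the exchange factor that activates Cdc42 in polarized growth, had a site at chrI:62649-62921, 1290 bp from a TBP site, with all 3 partner sites and no TATA word in the printed sequence. Its HA levels lay between 421 and 523 and its Myc levels between 321 and 411. All scaled HA values therefore lay above all scaled Myc values, and the ratio slope was 0.23 ± 0.048 with an edgeR adjusted p of 0.00155. Levels were scaled within each library, so an HA level above a Myc level, here or below, does not mean more HA than Myc copy at the site. SUL2, a sulfate permease, had a site at chrXII:323258-323660, 2566 bp from a TBP site, with HA levels of 390, 411, 433, 447, 461, 393, 491 and 536 and Myc levels of 471, 424, 442, 432, 445, 332, 392 and 432. The scaled HA level was below the scaled Myc level at 10 to 25 min and above it from 30 min. The ratio slope was 0.32 ± 0.036, with an edgeR adjusted p of 3.31e-05. DIS3, the catalytic subunit of the exosome, was the fourth highest member with all 3 partner sites, at chrXV:285322-285611, with HA levels from 302 to 466, Myc levels from 348 to 469 and a ratio slope of 0.17 ± 0.042 (adjusted p 0.00435), which did not pass with a trend linear in time (adjusted p 0.0644). HMS2, a protein similar to heat shock factors, had HA levels of 234 at 10 min and 510 at 120 min, Myc levels between 319 and 439, and a ratio slope of 0.38 ± 0.046 (adjusted p 5.35e-05). There the HA slope alone was 0.35 with an adjusted p of 0.0282.

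Besides the 3 chromosome ends, the largest rises of the ratio were at chrXIV:441144-441545 between tandem genes, at YBR197C and at PAR32. The chromosome XIV site lay 270 bp from a TBP site, with HA levels of 193 at 10 min and 388 at 120 min, Myc levels of 430 and 291, and a ratio slope of 0.54 ± 0.063 (adjusted p 3.73e-05). The YBR197C site lay inside the gene, at chrII:615230-615615, 434 bp into its 654 bp, with HA levels of 234 and 472 at 10 and 120 min, Myc levels of 463 and 362, and a slope of 0.48 ± 0.056 (adjusted p 4.25e-05). PAR32, a protein linked to ammonium uptake, had a site at chrIV:148008-148260 with HA levels of 165 and 421, Myc levels of 406 and 354, and a slope of 0.47 ± 0.096 (adjusted p 0.00141). Without 10 min the PAR32 slope was 0.26 (adjusted p 0.0123), and with a trend linear in time it did not pass (adjusted p 0.0659). In all 3 the HA level was lowest at 10 min.

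The largest falls were at VIR1, HUA2, ETT1, YPR014C, ATG7 and YUR1, and none of these 6 sites overlapped a TFIIA, TFIIB or TFIIF site. The VIR1 site lay inside the gene, at chrVII:430115-430446, 1679 bp into its 2730 bp and 1906 bp from a TBP site. Its HA levels were 379, 224, 165, 168, 122, 107, 133 and 140, and its Myc levels 179, 193, 177, 183, 260, 308, 426 and 434. The scaled HA and Myc levels moved in opposite directions there, and the ratio slope was -0.69 ± 0.077 (adjusted p 3.18e-05). Raw Myc counts at VIR1 were 983 at 10 min and 949 at 120 min, in libraries with 17778234 and 9550337 counts in TFIIE sites. Fitted alone, Myc rose with a slope of 0.31 (adjusted p 0.000612) and HA fell with a slope of -0.37 (adjusted p 0.0329).

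ATG7, which encodes the activating enzyme of autophagy, had a site at chrVIII:445501-445769, 78 bp upstream of the start and 1674 bp from a TBP site. Its HA levels were 373, 200, 184, 166, 144, 144, 187 and 159, and its Myc levels 203, 166, 149, 185, 262, 245, 492 and 441. After the first time HA stayed low while Myc at 90 and 120 min was above all earlier Myc values, and the ratio slope was -0.56 ± 0.060 (adjusted p 2.45e-05). HUA2 (chrXV:848319-848464), ETT1 (chrXV:426064-426211), YPR014C (chrXVI:587648-587857) and YUR1 (chrX:152984-153178), a mannosyltransferase, had ratio slopes of -0.61, -0.60, -0.57 and -0.55, with adjusted p from 3.31e-05 to 0.000276. At HUA2 the Myc level was 202 at 10 min, 726 at 90 min and 635 at 120 min, and the HA level 333, 243 and 244. Under the loess scaling all 6 falls and the rises at MNN4, CDC24, SUL2, HMS2, DIS3, YBR197C, PAR32 and chrXIV:441144-441545 kept their direction and passed the threshold. The slope of MNN4 was then 0.15 (adjusted p 0.0379), and those of HUA2, ETT1, YPR014C, ATG7 and YUR1 lay between -0.31 and -0.26.

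**Figure D4:**
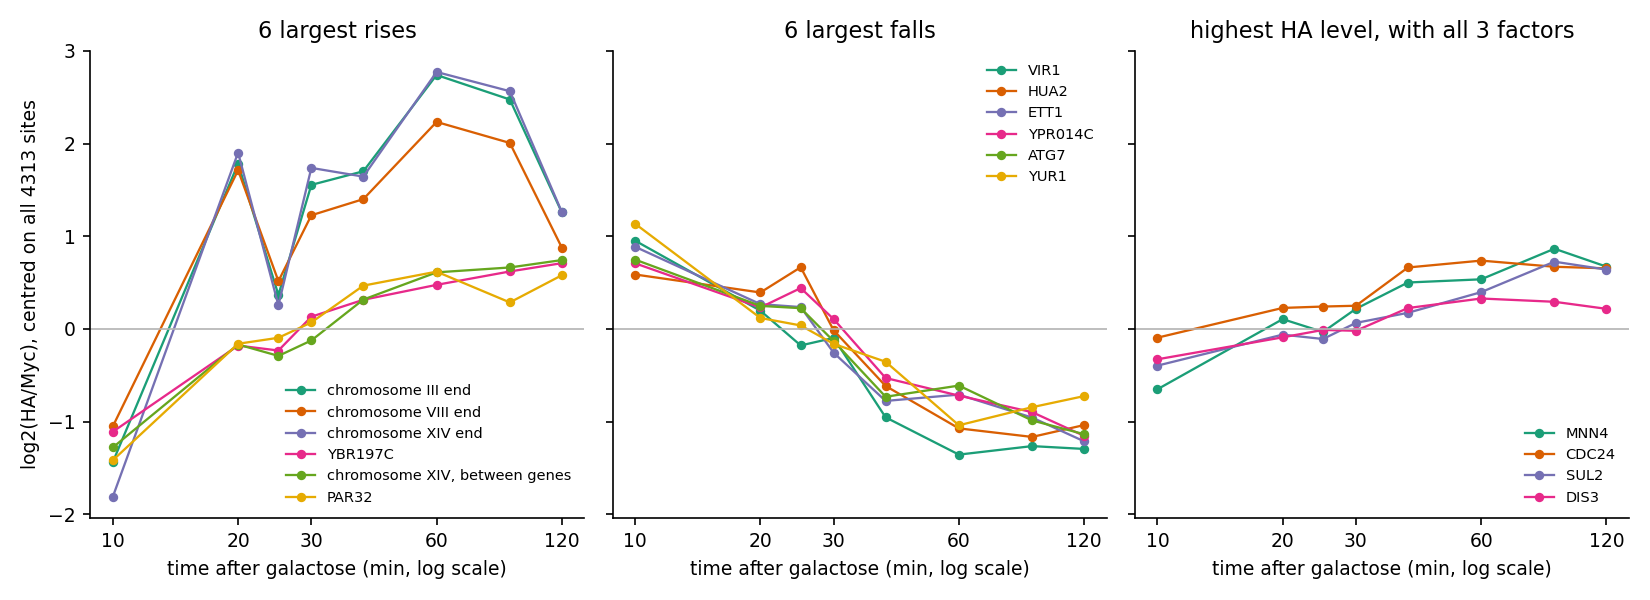
log2(HA/Myc) centred on the median of all 4313 sites (y axis) against time after galactose (min, log scale) at single members: the 6 largest rises (left), the 6 largest falls (middle) and the 4 members with the highest HA level among those that overlapped TFIIA, TFIIB and TFIIF sites (right). Each point is 1 library pair, with no replicate; the 3 chromosome ends move together and peak at 60 min, while the 6 falls are all above 0 at 10 min and below 0 from 40 min.

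Of the 9 gene lists examined, the mitochondrial ribosomal protein genes gave the most members. They made up 13 members (1.1%) and 40 remaining sites (1.28%). The ratio rose at 2 of the 13, MRPL28 and MRPL38, with slopes of 0.25 ± 0.068 (adjusted p 0.00773) and 0.11 ± 0.038 (adjusted p 0.0232), and fell at 4, MRPL1, MRPL25, MRP49 and MRPL44, with slopes from -0.12 to -0.30. The other 7 did not pass. The median slope of the 13 was 0.011, against -0.12 over all members, and that of the 40 remaining sites was 0.10, with 20 rising and 4 falling. MRPL28 no longer passed without 10 min (adjusted p 0.136), and MRPL44, at an adjusted p of 0.0414, did not pass without 10, 20, 25, 30 or 120 min (adjusted p 0.0755 to 0.223). With the loess scaling MRPL1 and MRPL25 did not pass (adjusted p 0.981 and 0.0728), the slope of MRPL44 turned to 0.0039 (adjusted p 0.952), and the ratio rose at MRPL37 (slope 0.23, adjusted p 0.0237). MRPL28, MRPL38 and MRPL44 did not pass with a trend linear in time (adjusted p 0.145, 0.0716 and 0.0657). Nor did MRPL38 with the total-count scaling (0.0676) or MRPL44 with edgeR's RLE scaling or DESeq2's Wald test (0.0654 and 0.0727).

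Genes of the transcription machinery itself gave 8 members and 16 remaining sites. The members were at TAF2 and TAF11, which encode TFIID subunits, TAF14, shared by TFIID and TFIIF, TOA2, the small TFIIA subunit, and TFB1, TFB2, TFB4 and SSL1, which encode TFIIH subunits. The ratio fell at TFB4 (slope -0.28 ± 0.049, adjusted p 0.00054), TFB2 (-0.23 ± 0.069, 0.0127) and TAF2 (-0.14 ± 0.047, 0.0243), and rose at none of the 8. Over all members it fell at 47.1% and rose at 7.58%. At the 16 remaining sites of this list it rose at 8 and fell at 3. TFB2 did not pass without 10 min (adjusted p 0.163) and TAF2 did not pass without 10, 90 or 120 min (adjusted p 0.208, 0.0617 and 0.0650). Neither passed with a trend linear in time (adjusted p 0.159 at TFB2 and 0.0612 at TAF2), and TAF2 did not pass without the time block (0.0617). With the total-count scaling the ratio also fell at TAF14 (slope -0.10, adjusted p 0.0302). With the loess scaling none of these 3 falls passed, with slopes of -0.089 at TFB4, -0.040 at TFB2 and 0.016 at TAF2 (adjusted p 0.161, 0.648 and 0.793), and the ratio rose at TFB1 (slope 0.26, adjusted p 0.00111). HA levels in these 8 members ran from 233 at TFB4 to 354 at TOA2.

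Hexose transport genes gave 4 remaining sites, of which the ratio rose at 1 and fell at 1, and 4 members. SNF3 and RGT2, the glucose sensors of the plasma membrane, had sites near their starts with slopes of -0.29 ± 0.047 (adjusted p 0.000306) and 0.044 ± 0.047 (adjusted p 0.436). HXT15 and HXT8, transporters of a family with near-identical copies whose reads may be shared, had sites inside the gene near its 3′ end, with slopes of -0.32 ± 0.056 (adjusted p 0.000505) and -0.071 ± 0.081 (adjusted p 0.466). Without 10 min the ratio fell at HXT8, with a slope of -0.25 (adjusted p 0.0090). Of the other lists, PDC5, a pyruvate decarboxylase gene, was the only member among glycolysis genes (10 remaining sites) and had a slope of -0.073 ± 0.066 (adjusted p 0.359). PCL2, a cyclin of the Pho85 kinase, was the only one among cyclin genes (6 remaining sites), with a site inside the gene and a slope of -0.16 ± 0.052 (adjusted p 0.0186), which did not pass without 10, 20 or 90 min (adjusted p 0.0623, 0.0596 and 0.0761), with a trend linear in time (0.0852) or without the time block (0.0681). With the loess scaling SNF3 did not pass (adjusted p 0.0636), the ratio rose at RGT2 (slope 0.14, adjusted p 0.0359), HXT15 had a slope of -0.14 (adjusted p 0.0384) and the slope of PCL2 turned to 0.042 (adjusted p 0.461).

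The lists of cytosolic ribosomal protein, Gal4-regulated, heat shock and histone genes held no member, against 96, 8, 9 and 3 remaining sites. Over all 4313 sites 27.5% were members, so the lists of 8, 9 and 3 sites are too small for their lack of members to be read. The remaining sites of these 4 lists had median HA levels of 838, 1000, 842 and 923, above the upper quartile of members, 295.

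The members farthest from any TBP site were at chrVIII:255632-256454 between divergent genes, 13082 bp away, at YJR151W-A, 11671 bp away, and at the end of chromosome III. The chromosome VIII site overlapped TFIIA, TFIIB and TFIIF sites, with HA levels from 231 to 354, Myc levels from 266 to 362 and a ratio slope of -0.066 ± 0.041 (adjusted p 0.187), and with the loess scaling its ratio fell, with a slope of -0.17 (adjusted p 0.00474). The 2 members just inside the limit, at chrXII:1065474-1065758 and chrXVI:431364-431708, both lay 151 bp from a TBP site, with HA levels of 337 and 349 and Myc levels of 398 and 375. The 2 sites just outside it, at YJL193W and ECM18, lay 135 and 130 bp away, with HA levels of 291 and 224 and Myc levels of 294 and 270.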

How the data were processed

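Competition ChIP-seq counts of TFIIE were used, with site positions of TBP, TFIIA, TFIIB and TFIIF. HA and Myc counts of TFIIA, TFIIB and TFIIF were used only for the levels of these factors in their own sites. Per the submitters' processing notes and the study's methods, the authors mapped reads to sacCer3 with Bowtie2 2.2.6, called peaks with MACS2 2.1.0.20151222 from several of the early Myc libraries with an input as control, merged them, and counted reads per interval with bedtools. The deposited values were raw counts, without scaling. Of the 95 samples, 81 had a count column. Input libraries and protein levels were not used here, so no residence time was estimated and each site was read relative to the typical TFIIE site.

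Site names were read as half-open intervals on R64. The distance of a site to a TBP site was the difference between the positions of their nearest end bases, not the number of bases between them. Ratio slopes were fitted in edgeR 4.0.16 (R 4.3.3) with TMM scaling on 16 libraries, in a model of time point, tag, and the interaction of tag with log2(time) (6 residual degrees of freedom). Each tag alone was fitted on log2(time) with 8 libraries. The Benjamini-Hochberg adjustment ran over 4473 sites. In log2(HA/Myc) a pseudocount of 0.5 CPM was used. Alternatives in edgeR were RLE scaling (the size-factor method of DESeq2), total-count and loess scaling, other count filters, linear time, no time block and each time left out. The Wald test of DESeq2 1.42.0 was another. Further alternatives were limits of 0, 300 and 500 bp, a distance of 500 bp from tRNA genes, overlap within 150 bp, a pseudocount of 5, and a wider gene window. The loess scaling of single tags was added after the data were seen. The ratio fit was run on simulated counts with a common dispersion and no trend linked to level, so that run cannot speak to such trends. Summaries were made in Python 3.11.15 with pandas 2.3.3.

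Named members were the 8 with the highest HA level, the 6 largest rises and 6 largest falls of the ratio among called members with a mean of at least 50 counts and one sign in all 8 fits that left out a time, the 4 with the highest HA level and all 3 partner sites, the 3 farthest from a TBP site, all members of the 9 gene lists, and the 2 sites on either side of the 150 bp limit. The members and lists were chosen with earlier results of these data known.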

Additional observations from a re-analysis of the deposited data

How the results depend on the processing

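The counts of members with a falling ratio stayed within 1.5 times of 559 under every alternative except the loess scaling, which gave 154, with 446 to 555 when a time was left out. The count of rising members was 90, and was 243 with the loess scaling, 22 with linear time and 40 to 111 when a time was left out, with 40 without 10 min. The difference in median ratio slope, members minus remaining sites, was -0.16, ran from -0.18 to -0.14 when a time was left out, and turned to 0.025 with the loess scaling. The cause was not tested.

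For Myc alone the loess scaling gave 131 rising and 192 falling members and turned the difference in medians, 0.15, to -0.0036. With a time left out, Myc counts ran from 418 to 658 rising and from 34 to 54 falling, with 34 falling without 120 min, and the difference in medians from 0.14 to 0.20, with 0.20 without 10 min. For HA alone, leaving out a time gave 1 to 25 rising and 1 to 38 falling members, the loess scaling 36 rising, the total-count scaling 103 falling, and members over 500 bp from TBP sites 14 rising. The HA difference in medians, -0.0070, turned to 0.019 with the loess scaling and ran from -0.020 to 0.010 when a time was left out, with 0.010 without 10 min.

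With the wider gene window 86.8% of members lay near a start. Limits of 0, 300 and 500 bp left 1227, 1120 and 1019 members, of which the ratio fell at 47.3%, 48.2% and 49.0%. The overlap shares and the differences in log2(HA/Myc) at each time moved by less than their spread under all alternatives run for them. Of 768 values of the 48 named members, 709 kept their side of the threshold, 49 no longer passed and 7 newly passed. The other 3 were slopes of called members that turned under the loess scaling, at MRPL44 (0.0039), TAF2 (0.016) and PCL2 (0.042). Direction was compared only for members called in the main fit. Slopes of some uncalled members also turned, such as YJR151W-A with the loess scaling (0.11, against -0.057) and PDC5 without 10 min (0.066, against -0.073). The single library per time limits the precision of every slope.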
